A study of Mus musculus with 9 samples.

Results

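The genes described here are the 3 transcription factors delivered by the MGT virus mixture, Mef2c, Gata4 and Tbx5, and 3 of their relatives, Mef2a, Mef2d and Tbx2. They were chosen by name and are 6 of the 34779 named genes in the expression table. All 9 libraries came from neonatal cardiac fibroblasts of WT mice, a cell type made of the matrix-producing cells of the newborn heart. They were infected 24 h after seeding and collected on day 14. The groups were MGT-infected cells given TMP269, a compound that blocks the class IIa histone deacetylases, MGT-infected cells without it, and cells infected with DsRed, a virus for a red fluorescent protein, with 3 libraries in each group. All of them were kept in the same induction medium with serum. The labels call the replicates biological but name no separate animals or cultures, so a p-value here reflects differences among libraries only, and these may be technical. The sources used here give neither the strain nor the dose of TMP269 nor the vector that carried the factors.

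Mef2c belongs to the MEF2 family of MADS-box factors, which bind A/T-rich sites in muscle genes and are held inactive by class IIa histone deacetylases bound to them. Gata4 is a zinc finger factor and Tbx5 a T-box factor, and both act with Nkx2-5 and other partners on genes of the contractile apparatus, the natriuretic peptides and the conduction system. Delivered together, the factors are known to drive part of the fibroblasts toward a cardiomyocyte-like state, and the study asked how an inhibitor aimed at Hdac4 changes that process. Mef2a and Mef2d are the other broadly expressed MEF2 proteins, and Tbx2 is a T-box repressor of the developing heart that binds sites also used by Tbx5.

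Expression is given in TPM, a length-corrected share of the transcripts of a library scaled to a fixed total. The table has 1 value per gene symbol, so transcripts of the virus and of the cell's own gene are not separated for Mef2c, Gata4 and Tbx5. Differences were tested with limma on log2(TPM + 1), a scale that understates the change of genes with low TPM. A gene was called where its p, adjusted by the Benjamini-Hochberg method over the 13228 genes with a mean of at least 1 TPM, was under 0.05. All 6 genes passed that filter. The 3 comparisons share groups, so their results are not independent of each other.

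DsRed replicate 2 stood apart. The upper quartile over genes was 5.38 TPM in it and 8.69 to 9.57 TPM in the remaining 8 libraries, and it correlated with the other DsRed libraries at 0.942 and 0.943, against 0.973 for DsRed replicates 1 and 3. The 9 fibroblast markers all averaged at least 1 TPM in every group. Their sums were 2360 to 2500 TPM in MGT+TMP269 cells, 7690 to 8240 TPM in MGT cells and 6050 to 11300 TPM in DsRed cells. Thy1, Col1a1 and Col1a2 averaged higher in MGT than in DsRed cells, and the remaining fibroblast markers averaged lower. Thy1 averaged 365 TPM in MGT+TMP269, 445 TPM in MGT and 202 TPM in DsRed cells. Every fibroblast marker averaged lower in MGT+TMP269 than in MGT cells. The sum of 9 cardiomyocyte markers was 8650 to 9510 TPM in MGT+TMP269 cells, 5250 to 5860 TPM in MGT cells and 184 to 308 TPM in DsRed cells. In the first 2 of those groups 8 of the 9 reached a mean of 1 TPM, and Myl2 did not. The 10 macrophage markers summed to 94.8 to 140.2 TPM in MGT+TMP269 cells, 1670 to 3150 TPM in MGT cells and 626 to 1780 TPM in DsRed cells. In bulk RNA, fewer cells of a type and less RNA per cell cannot be told apart, nor can more infected cells and more RNA of a factor per infected cell.

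All 3 delivered factors were far higher in MGT than in DsRed cells. Mef2c stood at 691, 599 and 654 TPM in the MGT libraries, against 7.64, 34.2 and 7.54 TPM in the DsRed libraries. The groups did not overlap, and the second DsRed library lay above the other 2. The mean was 39.4 times higher in MGT cells, a log2 difference of 5.56 ± 0.46 (SE, adjusted p = 3.54e-05, limma). Tbx5 had 389, 372 and 386 TPM in MGT cells, against 4.50, 2.99 and 6.16 TPM in DsRed cells. Its mean was 84.1 times higher (log2 difference 6.15 ± 0.19, adjusted p = 3.32e-08, limma). The order of these changes turned without DsRed replicate 2, where the log2 difference was 5.93 for Tbx5 and 6.24 for Mef2c. Gata4 had a clear level without the virus mixture and the smallest change, with 270.1, 235 and 263 TPM in MGT cells and 70.7, 40.7 and 76.4 TPM in DsRed cells. Its mean was 4.09 times higher (log2 difference 2.06 ± 0.21, adjusted p = 0.000138, limma), and its groups did not overlap either. Among all genes tested, 12.3% were called in this comparison, 8.14% as higher and 4.18% as lower. The groups did not overlap for 28.7% of them, with 19.1% higher and 9.63% lower. Leaving out any 1 of the 9 libraries kept the calls of the 3 factors.

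**Figure D1:**
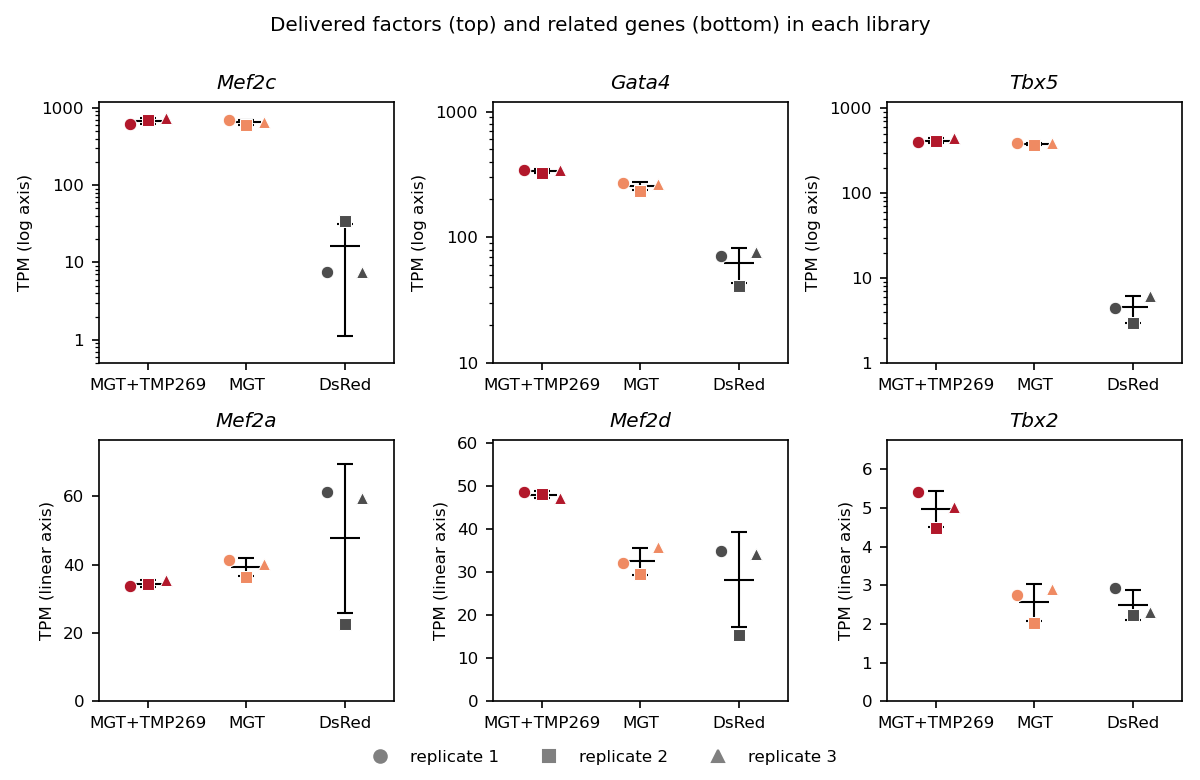
TPM of each of the 6 genes in every library (points; long bars are the mean of 3 libraries and whiskers 1 SD), with groups from left to right MGT+TMP269, MGT and DsRed; the upper panels have a logarithmic axis and the lower panels a linear one. Mef2c, Gata4 and Tbx5 are high in both MGT groups, and the second DsRed library stands away from the others in Mef2c, Mef2a and Mef2d.

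The delivered genes ranked high in the transcriptome. In the MGT libraries Mef2c was between the 228th and the 268th most abundant gene, Tbx5 between the 405th and the 430th, and Gata4 between the 608th and the 712th. In the DsRed libraries Gata4 ranked 2351, 3091 and 2193, Mef2c 9042, 3535 and 9183, and Tbx5 10303, 10104 and 9675. The order Mef2c, Tbx5, Gata4 held in all 6 MGT+TMP269 and MGT libraries, and the values of neighbours in that order did not overlap within either group. In DsRed cells Gata4 came first in each of the 3 libraries and Tbx5 and Tbx2 came last, while Mef2a, Mef2d and Mef2c overlapped between them. Together the 3 factors made up 0.137% to 0.154% of all TPM in MGT+TMP269 cells and 0.122% to 0.137% in MGT cells, and summed to only 77.8 to 90.1 TPM in DsRed cells.

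TPM divides by transcript length, and the endogenous transcripts of these genes differ in how much of them is coding. In GENCODE M21, the longest complete coding transcript of Mef2c (ENSMUSG00000005583.16, chromosome 13) has 6277 bases, of which 23.1% are coding. For Gata4 (ENSMUSG00000021944.15, chromosome 14) the figures are 3400 bases and 39.0%, and for Tbx5 (ENSMUSG00000018263.11, chromosome 5) they are 3942 bases and 39.4%. Mef2c has 13 complete coding transcripts, the shortest of 1185 bases, and Gata4 has 3, the shortest of 2407 bases, while Tbx5 has 1. The labels do not say which part of a transcript the virus carried. Its bearing on the order of the 3 levels was not tested.

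The Mef2c level of DsRed replicate 2 was the highest of that group at 34.2 TPM, while its Gata4, Tbx5, Mef2a and Mef2d were the lowest. Mef2c is also a gene of macrophages, endothelium and cardiomyocytes. In that library the 10 macrophage markers summed to 625.5 TPM, against 633.9 and 1777 TPM in DsRed replicates 1 and 3. The 8 endothelial markers summed to 32.1 TPM, against 31.6 and 25.8 TPM, and the 9 cardiomyocyte markers to 308 TPM, against 184 and 234 TPM. Most of that last sum was Tnnt2, at 246 TPM there and at 157 and 196 TPM in DsRed replicates 1 and 3. The atrial natriuretic peptide Nppa, another of the cardiomyocyte markers, was at 39.0 TPM there and at 1.55 and 9.49 TPM in the others. The list did not move together: Myh6, Myl2 and Pln were also highest in DsRed replicate 2, but Actc1, Tnni3 and Myl7 were lowest there. Ryr2 lay between the other DsRed libraries. The part of these cells in the Mef2c level was not tested. Without that library Mef2c was 6.24 higher on the log2 scale in MGT than in DsRed cells.

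Delivery changed the makeup of each factor family. Mef2c made up 88.1% to 89.8% of the summed TPM of Mef2a, Mef2b, Mef2c and Mef2d in MGT+TMP269 cells, 89.5% to 90.3% in MGT cells and 7.34% to 47.1% in DsRed cells. Mef2a and Mef2d held most of that family in DsRed cells, with 31.2% to 58.9% and 21.3% to 33.6%. The family as a whole summed to 694 to 814 TPM in MGT+TMP269 cells, 665 to 765 TPM in MGT cells and 72.5 to 104 TPM in DsRed cells. Gata4 took 89.3% to 89.5% of the 6 GATA genes in MGT+TMP269 cells, 87.7% to 90.0% in MGT cells and 50.6% to 52.5% in DsRed cells. Gata6, the cardiac GATA factor closest to Gata4 in its role, supplied another 35.5% to 37.7% in DsRed cells. Tbx5 took 66.3% to 67.4% of the 17 T-box genes in MGT+TMP269 cells, 70.5% to 71.7% in MGT cells and 2.63% to 4.21% in DsRed cells. There Tbx20, a T-box factor of the heart and its fibroblasts, was the main member with 66.4% to 66.8%.

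**Figure D2:**
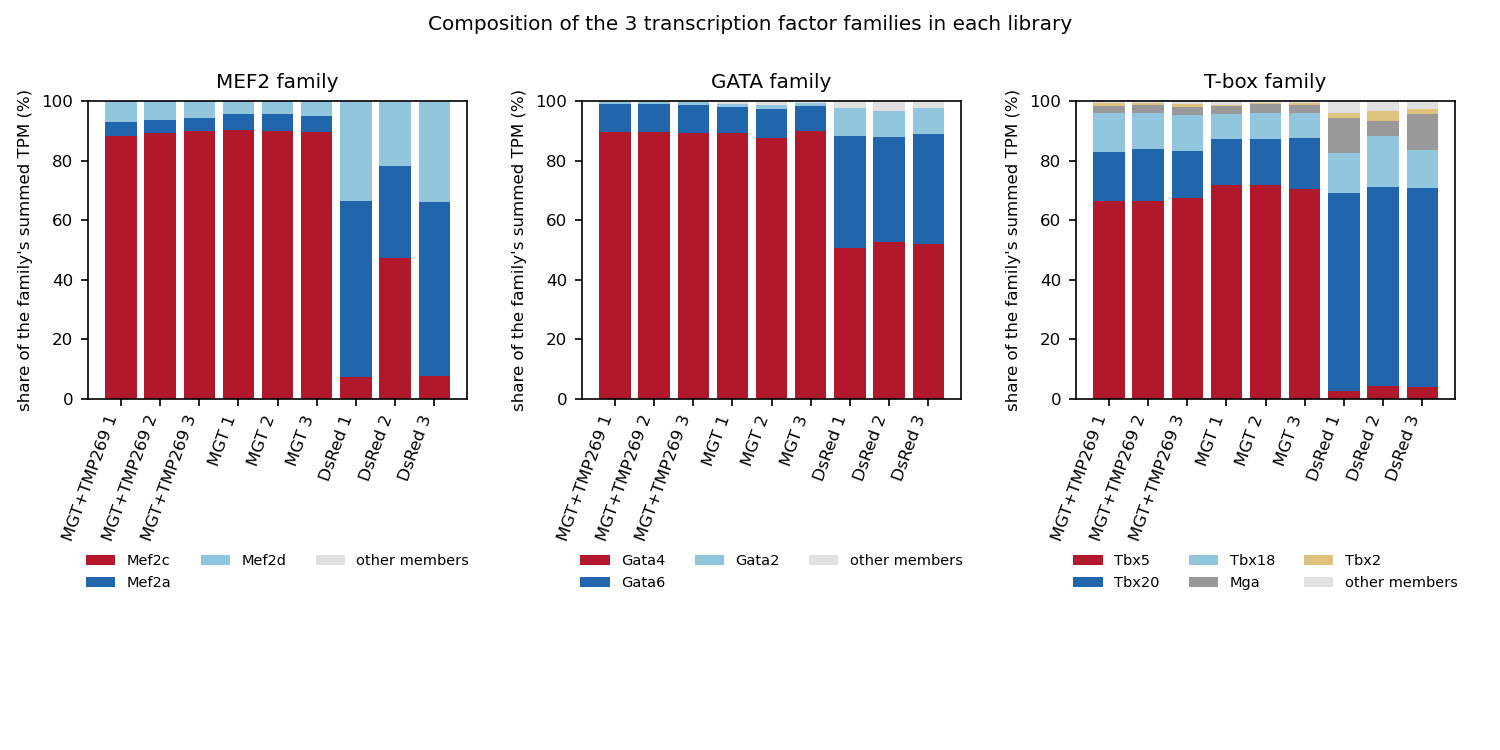
Share of each family member in the summed TPM of its family (percent, stacked bars), for each library, with groups from left to right MGT+TMP269, MGT and DsRed. Mef2c and Gata4 fill most of their families in the 6 MGT+TMP269 and MGT libraries, whereas Tbx20 leads the T-box family in the 3 DsRed libraries.

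The relatives of the delivered factors mostly did not follow them. Mef2a was at 41.4, 36.3 and 40.3 TPM in MGT cells and at 61.3, 22.6 and 59.4 TPM in DsRed cells, and the groups overlapped. The log2 difference was -0.15 (95% confidence interval -0.87 to 0.57, adjusted p = 0.824, limma). Without DsRed replicate 2 it was -0.61 with an adjusted p of 0.00072 (limma), a call that the full set of libraries did not give. Mef2d was at 32.1, 29.4 and 35.8 TPM in MGT cells and at 34.8, 15.4 and 34.1 TPM in DsRed cells. Its groups overlapped too, with a log2 difference of 0.28 (95% confidence interval -0.33 to 0.89, adjusted p = 0.582, limma). Tbx2 was low throughout, at 2.75, 2.01 and 2.91 TPM in MGT cells and 2.94, 2.23 and 2.31 TPM in DsRed cells (log2 difference 0.02, 95% confidence interval -0.41 to 0.45, adjusted p = 0.957, limma). The directions of Mef2d and Tbx2 in this comparison were not stable: without DsRed replicate 2 Mef2d was at -0.09 and Tbx2 at -0.03, and Tbx2 was at -0.24 after quantile normalization.

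Of the GATA genes, 4 of 6 were tested, and Gata4 was higher and Gata2 lower in MGT than in DsRed cells. In this comparison 8.14% of all genes were called higher and 4.18% lower. Gata2, a factor of blood and endothelial cells, was at 3.31, 4.30 and 3.00 TPM in MGT cells and at 13.3, 6.77 and 13.0 TPM in DsRed cells, a log2 difference of -1.36 ± 0.29 (adjusted p = 0.0131, limma). The call was lost without MGT replicate 1, MGT replicate 3 or DsRed replicate 1 (highest adjusted p = 0.0616, limma). The 8 endothelial markers summed to 14.6 to 22.8 TPM in MGT cells and 25.8 to 32.1 TPM in DsRed cells, and their part in the level of Gata2 was not tested. Of the T-box genes, 7 of 17 were tested, and with all 9 libraries Tbx5 and Tbx18 were called. Tbx18, a factor of epicardium and sinus node, was at 45.1, 46.1 and 45.4 TPM in MGT cells and 22.9, 12.3 and 20.0 TPM in DsRed cells. Its log2 difference was 1.30 ± 0.20 (adjusted p = 0.00189, limma). Without DsRed replicate 2, 4 T-box genes were called, with Tbx20 (-0.35, adjusted p = 0.0136, limma) and Mga (-0.34, adjusted p = 0.0401, limma) lower, and 3 GATA genes, with Gata6 lower (-1.04, adjusted p = 1.67e-05, limma). That run called 3468 genes in all, against 1630 with all 9 libraries. The 7 epicardial markers summed to 415 to 435 TPM in MGT cells and 258 to 395 TPM in DsRed cells, but they went different ways. Msln averaged 241 TPM in MGT and 27.3 TPM in DsRed cells, and Krt19 was also higher in MGT cells. Wt1, Upk3b, Upk1b, Aldh1a2 and Lrrn4 averaged lower in MGT than in DsRed cells. The part of epicardial cells was not tested.

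TMP269 was added on top of the delivered factors, and the comparison of MGT+TMP269 with MGT cells asked what it did to them. Of the 6 genes, only Tbx2 passed the test. Across all genes 9.29% were called, 3.32% as higher and 5.97% as lower. The groups did not overlap for 49.3% of all genes, with 32.7% higher and 16.6% lower, so a lack of overlap is common here. Tbx2 was at 5.41, 4.47 and 5.03 TPM in MGT+TMP269 cells and at 2.75, 2.01 and 2.91 TPM in MGT cells, 1.95 times as high. The log2 difference was 0.75 ± 0.19 (adjusted p = 0.0394, limma). That call was lost when any of the 6 MGT+TMP269 and MGT libraries was left out, with adjusted p up to 0.156 (limma), while the log2 difference stayed between 0.64 and 0.83. Against DsRed cells, at 2.94, 2.23 and 2.31 TPM, Tbx2 was 1.99 times as high in MGT+TMP269 cells (adjusted p = 0.018, limma), and the call was lost without MGT+TMP269 replicate 1 or 3 (highest adjusted p = 0.0725, limma). That comparison called 22.8% of all genes, 14.7% as higher and 8.06% as lower, and its groups did not overlap for 41.9%, with 29.8% higher and 12.1% lower.

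Tbx18 was the other T-box gene called with TMP269, so that 2 of the 7 tested were higher than in MGT cells, beside 3.32% of all genes. It was at 79.4, 73.6 and 80.2 TPM in MGT+TMP269 cells and at 45.1, 46.1 and 45.4 TPM in MGT cells (log2 difference 0.76 ± 0.20, adjusted p = 0.0442, limma). As for Tbx2, the call was lost when any of the 6 MGT+TMP269 and MGT libraries was left out (highest adjusted p = 0.147, limma). Without DsRed replicate 2 the T-box genes had 3 calls, in a run with 4060 calls over all genes against 1229 with all 9 libraries. The 7 epicardial markers summed to 514 to 543 TPM in MGT+TMP269 cells and 415 to 435 TPM in MGT cells. Most of that rise was Upk1b, which averaged 183 TPM in MGT+TMP269 and 87.3 TPM in MGT cells. Wt1, Lrrn4, Msln and Upk3b also averaged higher with TMP269, while Aldh1a2 and Krt19 averaged lower. The part of epicardial cells in the Tbx18 level was not tested.

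Mef2c did not differ between the MGT groups beyond its spread. It stood at 611, 701 and 730.2 TPM in MGT+TMP269 cells and at 691, 599 and 654 TPM in MGT cells, and the groups overlapped. The log2 difference was 0.07 with a 95% confidence interval of -0.96 to 1.10 (adjusted p = 0.957, limma), and it was -0.05 after median-ratio scaling. Tbx5 was at 399.9, 407 and 447 TPM in MGT+TMP269 cells and 389, 372 and 386 TPM in MGT cells. All 3 MGT+TMP269 libraries lay above the MGT libraries, but the log2 difference of 0.13 did not pass (95% confidence interval -0.29 to 0.55, adjusted p = 0.764, limma).

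Gata4 was the delivered factor with the largest difference between these groups. It had 340.0, 324 and 344 TPM in MGT+TMP269 cells, against 270.1, 235 and 263 TPM in MGT cells, 1.31 times as much with no overlap. The log2 difference of 0.39 (95% confidence interval -0.08 to 0.86) did not pass with all 9 libraries (adjusted p = 0.321, limma). The model takes 1 spread from all 3 groups, and without DsRed replicate 2 the adjusted p was 0.00328 (limma). A fit to the MGT+TMP269 and MGT libraries alone gave an adjusted p of 0.00345 (limma). The call therefore depends on the DsRed libraries, which are not part of the comparison. Passing was more common in both settings. Without DsRed replicate 2, 4060 genes were called, against 1229 with all 9 libraries, and the fit to the MGT groups alone also called more genes. Gata6, the next most abundant of the GATA genes, was at 36.3, 34.4 and 35.5 TPM in MGT+TMP269 cells and 26.3, 25.4 and 24.7 TPM in MGT cells. Its log2 difference of 0.46 did not pass either (adjusted p = 0.292, limma, and 0.00111 without DsRed replicate 2).

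The balance among the delivered factors was also compared within each library, as a ratio of TPM. Multiplying all values of a library by the same number leaves such a ratio unchanged. Quantile scaling can change it and was not run for the ratios. Mef2c over Gata4 was 1.02 ± 0.15 on the log2 scale in MGT+TMP269 cells and 1.34 ± 0.02 in MGT cells (SD, n = 3 each), a difference of -0.32. Gata4 over Tbx5 was -0.31 ± 0.07 in MGT+TMP269 cells and -0.58 ± 0.07 in MGT cells, a difference of 0.27. Neither ratio overlapped between the groups. Each gave a p of 0.1 in a two-sided exact permutation test (adjusted p = 0.15 over 3 ratios). That is the smallest p that 3 libraries against 3 can give, and any lack of overlap gives it. Both ratios contain Gata4, whose own difference did not pass with all 9 libraries. Among single genes, the groups did not overlap for 49.3% in this comparison. Mef2c over Tbx5 was 0.70 ± 0.09 in MGT+TMP269 cells and 0.76 ± 0.07 in MGT cells, a difference of -0.06 (exact permutation p = 0.5).

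Mef2a and Mef2d changed places between the groups. Mef2d was at 48.5, 48.2 and 47.1 TPM in MGT+TMP269 cells and at 32.1, 29.4 and 35.8 TPM in MGT cells. Mef2a was at 33.7, 34.3 and 35.5 TPM in MGT+TMP269 cells and at 41.4, 36.3 and 40.3 TPM in MGT cells. In every MGT+TMP269 library Mef2d exceeded Mef2a, and in every MGT library Mef2a exceeded Mef2d. Neither difference passed with all 9 libraries: that of Mef2d was 0.55 (95% confidence interval -0.05 to 1.16, adjusted p = 0.277, limma) and that of Mef2a was -0.18 (95% confidence interval -0.90 to 0.54, adjusted p = 0.807, limma). Without DsRed replicate 2 the adjusted p of Mef2d was 0.00154 (limma), in a run that called 4060 genes against 1229 with all 9 libraries. Against DsRed cells Mef2d had a log2 difference of 0.83 in MGT+TMP269 cells (adjusted p = 0.0529, limma). It was called when any 1 of the DsRed libraries was left out, with a difference of 0.46 and an adjusted p of 0.0045 (limma) without DsRed replicate 2.

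**Figure D3:**
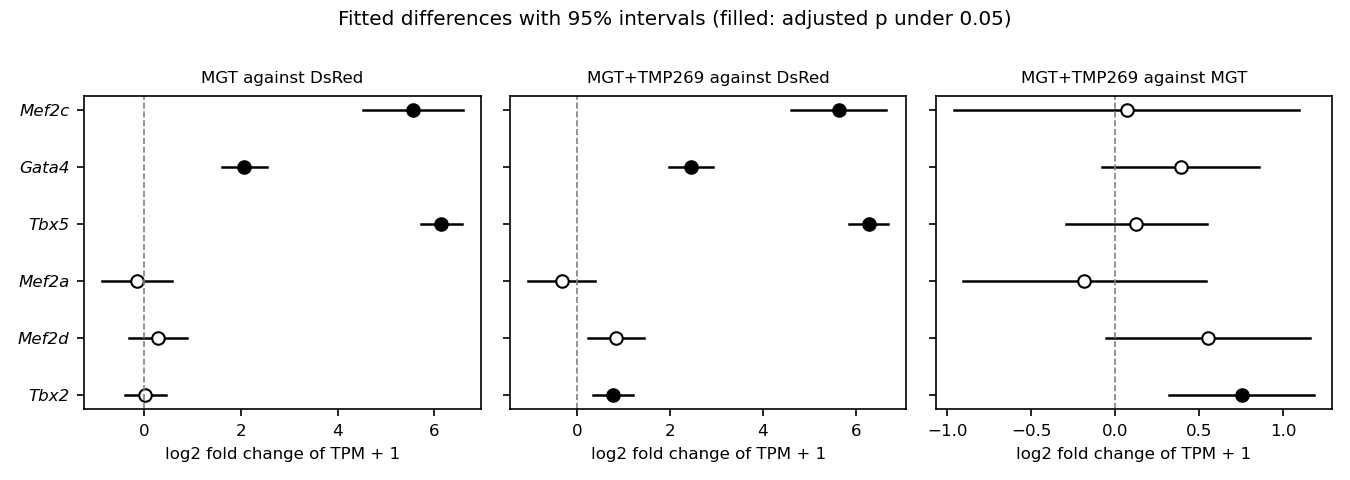
Log2 difference of each of the 6 genes with its 95% confidence interval, on the log2(TPM + 1) scale, for MGT against DsRed, MGT+TMP269 against DsRed and MGT+TMP269 against MGT from left to right; filled points have an adjusted p under 0.05. The intervals of Mef2c, Gata4 and Tbx5 lie far above 0 against DsRed, and against MGT only that of Tbx2 lies above 0.

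The starts of Mef2d and Mef2a are shown because their order differed between the MGT+TMP269 and the MGT libraries, although neither gene passed the test, and the second annotated start of Mef2c because it holds letters read by the other delivered factors. Each line gives the 250 bases before a start from RefSeq (GRCm38.p6), 5′ to 3′ on the gene's strand: Mef2d at chr3:88142122-88142371 on the plus strand, Mef2a at chr7:67372859-67373108 on the minus strand and Mef2c at chr13:83523406-83523655 on the plus strand. Capitals mark matches to the GATA letters GATAA or TTATC and to the T-box letters AGGTGT or ACACCT.
Mef2d: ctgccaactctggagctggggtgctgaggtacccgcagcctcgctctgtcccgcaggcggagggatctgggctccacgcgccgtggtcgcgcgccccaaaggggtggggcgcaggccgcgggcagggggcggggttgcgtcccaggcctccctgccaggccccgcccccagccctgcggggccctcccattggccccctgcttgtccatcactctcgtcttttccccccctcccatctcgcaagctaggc
Mef2a: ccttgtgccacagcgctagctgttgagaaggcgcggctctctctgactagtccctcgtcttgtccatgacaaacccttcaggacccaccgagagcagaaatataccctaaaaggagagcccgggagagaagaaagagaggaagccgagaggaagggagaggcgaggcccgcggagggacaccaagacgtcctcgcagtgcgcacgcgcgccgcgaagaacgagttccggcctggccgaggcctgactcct
Mef2c: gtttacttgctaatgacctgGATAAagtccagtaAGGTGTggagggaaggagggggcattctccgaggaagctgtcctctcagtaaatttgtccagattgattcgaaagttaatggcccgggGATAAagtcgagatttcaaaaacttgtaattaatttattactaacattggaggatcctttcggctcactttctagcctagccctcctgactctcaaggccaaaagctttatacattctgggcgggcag
The Mef2d window is 73.2% G and C and that of Mef2a 61.6%, against a median of 52.4% over 32851 promoters, and neither holds a GATA, T-box or MEF2 match. The Mef2c window is 44.8% G and C. It holds GATAA ending 226 and 124 bases before the start and AGGTGT ending 211 bases before it, while the windows at its other 2 starts hold none. A match says only that these letters are there.

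The regulators of MEF2 were looked at beside the MEF2 genes, as a list of 14 deacetylases, kinases, phosphatase subunits and the corepressor Cabin1, of which 13 were tested. In MGT+TMP269 against MGT cells 2 were higher and 0 lower, where 3.32% of all genes were called higher and 5.97% lower. The median log2 difference was 0.50 beside 0.11 for all genes. Hdac5, a class IIa deacetylase, was at 135, 132 and 140.4 TPM in MGT+TMP269 cells and 60.8, 79.4 and 79.9 TPM in MGT cells (log2 difference 0.89 ± 0.20, adjusted p = 0.0217, limma). Hdac7, of the same class, was at 41.3, 40.4 and 48.8 TPM in MGT+TMP269 cells and 26.8, 30.1 and 31.7 TPM in MGT cells (0.54 ± 0.14, adjusted p = 0.0412, limma). Both calls were lost when any of the 6 MGT+TMP269 and MGT libraries was left out (highest adjusted p = 0.0959 for Hdac5 and 0.173 for Hdac7, limma). Without DsRed replicate 2 the list had 7 calls, but calls over all genes also rose, from 1229 to 4060.

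In MGT against DsRed cells 2 genes of that list were higher and 2 lower, beside 8.14% and 4.18% of all genes. Sik1, a kinase that phosphorylates class IIa deacetylases, averaged 14.9 TPM in MGT and 5.87 TPM in DsRed cells (log2 difference 1.28 ± 0.25, adjusted p = 0.00895, limma). Hdac9 averaged 5.49 TPM in MGT and 1.46 TPM in DsRed cells (3.76 times as much, adjusted p = 0.0102, limma). Prkd1, another kinase of these deacetylases, averaged 1.88 TPM in MGT and 4.71 TPM in DsRed cells (-0.96, adjusted p = 0.0154, limma), and Hdac7 29.5 TPM in MGT and 43.0 TPM in DsRed cells (-0.52, adjusted p = 0.0388, limma). The call of Prkd1 was lost on leaving out DsRed replicate 1 or a single MGT library (highest adjusted p = 0.0614, limma), and that of Hdac7 without any 1 library other than DsRed replicate 2 (highest adjusted p = 0.16, limma). The number of calls in the list was 6 without DsRed replicate 2 and 2 without DsRed replicate 1 or any 1 MGT library. Calls over all genes were 3468 without DsRed replicate 2 and 1630 with all 9 libraries.

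Among 15 partner factors and coactivators, 11 were tested, and 2 were higher and 1 lower in MGT than in DsRed cells. Over all genes 8.14% were called higher and 4.18% lower. The median log2 difference was 0.42 in the list beside 0.11 for all genes. Smarcd3, the BAF chromatin-remodelling subunit known as Baf60c that works with Gata4 and Tbx5, was at 149, 140.2 and 133 TPM in MGT cells and at 43.1, 53.9 and 50.9 TPM in DsRed cells (2.86 times as much, adjusted p = 2.04e-05, limma). Hand2, a helix-loop-helix factor also used in reprogramming mixtures, averaged 22.3 TPM in MGT and 39.0 TPM in DsRed cells (-0.77 ± 0.14, adjusted p = 0.00461, limma). Myocd, a coactivator of serum response factor, averaged 2.41 TPM in MGT and 0.603 TPM in DsRed cells (1.04 ± 0.29, adjusted p = 0.0464, limma), a call lost when MGT replicate 2, DsRed replicate 1 or 2, or any MGT+TMP269 library was left out (highest adjusted p = 0.109, limma). With TMP269, Smarcd3 was at 103, 103 and 103 TPM, below the MGT cells by 0.44 ± 0.11 on the log2 scale (adjusted p = 0.0404, limma), and this call was lost without any 1 of the 6 MGT+TMP269 and MGT libraries (highest adjusted p = 0.169, limma). Smarcd3 was the 1 call among the 11 tested genes of that list with TMP269, where 9.29% of all genes were called. Without DsRed replicate 2 the list had 6, while calls over all genes rose from 1229 to 4060. Nkx2-5, the homeobox partner of both Gata4 and Tbx5, stayed under the filter, with means of 0.364 TPM in MGT+TMP269 cells, 0.632 TPM in MGT cells and 0.440 TPM in DsRed cells.

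The genes whose pattern over the 9 libraries was most like each delivered factor were named by the smallest root mean square difference of centred log2 values. For Tbx5 these were Myl4 (0.18) and Actc1 (0.18), an atrial light chain and the cardiac actin, then Synpo2l (0.22), Rrad (0.36) and Casq2 (0.37). Myl4 had 5645 to 6038 TPM in MGT+TMP269 cells, 5720 to 6115 TPM in MGT cells and 61.8 to 89.1 TPM in DsRed cells. For Gata4 they were Svil (0.11), Efhd2 (0.11), Mboat2 (0.12), Fbxl2 (0.12) and Mllt3 (0.14), of which Svil encodes the actin-binding protein supervillin. Svil had 97.8 to 116 TPM in MGT+TMP269 cells, 88.1 to 93.9 TPM in MGT cells and 14.0 to 23.0 TPM in DsRed cells, and like Gata4 was lowest in DsRed replicate 2. Mef2c had no close match: the nearest were Lmod2 (0.60), Tcap (0.65), Mustn1 (0.66), Smpx (0.66) and Kcnc4 (0.66). Lmod2, an actin filament nucleator of the sarcomere, was at 0.966, 0.632 and 0.366 TPM in the DsRed libraries and so did not share the high Mef2c of DsRed replicate 2.

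**Figure D4:**
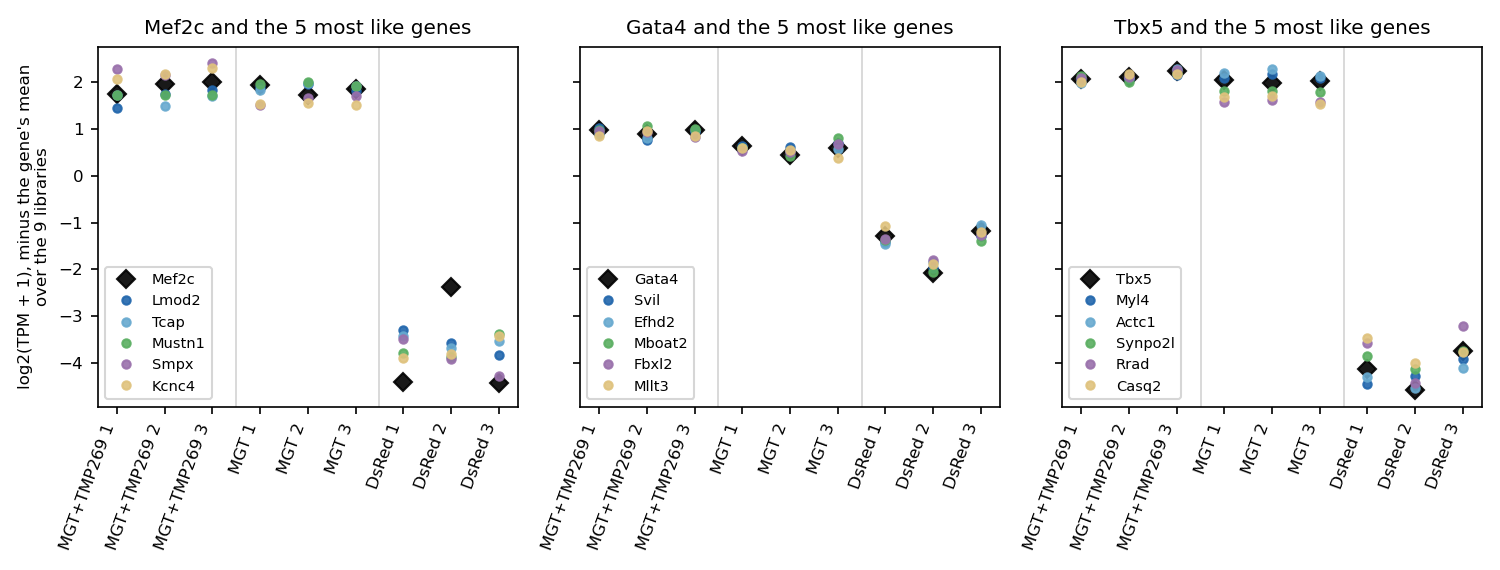
Log2(TPM + 1) of Mef2c, Gata4 and Tbx5 and of the 5 genes most like each, centred on the mean over the 9 libraries, with 1 point per gene and library and libraries ordered MGT+TMP269, MGT and DsRed. The points of Gata4 and its like genes lie close together, and Mef2c leaves its like genes at DsRed replicate 2.

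Genes known as direct targets of the factors were described next, from lists of textbook targets. Like the lists above, they were drawn up with earlier results of these data known. Their counts and medians are therefore descriptions and not independent evidence. The target lists overlap. Myh6 stands among the MEF2 and GATA4 targets, and Nppa among the targets of GATA4 and TBX5 and the genes repressed by TBX2 and TBX3. Gja5 stands among the TBX5 targets and the genes repressed by TBX2 and TBX3. The upstream windows of 3 target genes are shown, since they held matches and the genes differed with TMP269. They were chosen after the matches were seen. All 3 lie on the plus strand in RefSeq (GRCm38.p6), the 250 bases before the start of Nppa at chr4:148000472-148000721, of Nppb at chr4:147985650-147985899 and of Xirp2 at chr2:67445752-67446001. Capitals mark GATAA or TTATC and AGGTGT or ACACCT as above, and in Xirp2 the MEF2 letters, CTA and TAG with 4 bases of any kind between them, which read the same on both strands.
Nppa: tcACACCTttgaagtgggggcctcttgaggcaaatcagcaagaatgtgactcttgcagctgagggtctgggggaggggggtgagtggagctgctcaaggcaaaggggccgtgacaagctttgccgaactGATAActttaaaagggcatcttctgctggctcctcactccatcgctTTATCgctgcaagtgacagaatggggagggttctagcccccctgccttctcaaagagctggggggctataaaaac
Nppb: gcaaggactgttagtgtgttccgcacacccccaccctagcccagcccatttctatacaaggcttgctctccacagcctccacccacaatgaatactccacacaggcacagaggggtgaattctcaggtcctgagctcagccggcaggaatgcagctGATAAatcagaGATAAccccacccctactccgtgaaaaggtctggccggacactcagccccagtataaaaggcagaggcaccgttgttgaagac
Xirp2: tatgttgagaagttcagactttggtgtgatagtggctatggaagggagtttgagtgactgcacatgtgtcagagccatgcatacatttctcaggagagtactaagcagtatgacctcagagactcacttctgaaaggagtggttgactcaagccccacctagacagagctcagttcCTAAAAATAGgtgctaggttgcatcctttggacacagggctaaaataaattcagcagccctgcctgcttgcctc
Nppa holds GATAA ending 117 bases and TTATC ending 71 bases before the start, and ACACCT ending 243 bases before it. Nppb holds GATAA ending 90 and 79 bases before the start, and Xirp2 has its MEF2 letters between 74 and 65 bases before it. The MEF2 letters were in 3.2% of 32851 RefSeq windows of that length and in 3 of 11 windows of the MEF2 targets. The GATA letters were in 22.6% of all windows and in 3 of 11 windows of the GATA4 targets, and the T-box letters in 11.8% of all and in 1 of 7 windows of the TBX5 targets.

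Most textbook MEF2 targets were higher in MGT than in DsRed cells: of 13 genes, 9 were tested, 7 were higher and 1 lower. The shares over all genes were 8.14% higher and 4.18% lower. The median log2 difference of the list was 1.66 beside 0.11 for all genes. Myh6, the alpha myosin heavy chain, averaged 71.3 ± 4.27 TPM in MGT cells and 2.74 ± 0.18 TPM in DsRed cells (SD, n = 3 each), a log2 difference of 4.27 ± 0.12 (adjusted p = 1.67e-08, limma). Des, the muscle intermediate filament desmin, was at 1157, 1204 and 1137 TPM in MGT cells and at 212, 193 and 237 TPM in DsRed cells (log2 difference 2.44, adjusted p = 2.09e-07, limma). Xirp2, an actin-binding protein of the intercalated disc, was at 14.2, 12.5 and 13.2 TPM in MGT cells and at most 0.111 TPM in DsRed cells (3.73 ± 0.16, adjusted p = 3.88e-07, limma). Xirp1, its relative, was at 9.38, 14.1 and 12.3 TPM in MGT cells and at most 0.132 TPM in DsRed cells. With TMP269, 1 gene of that list was higher and 1 lower than in MGT cells, beside 3.32% and 5.97% of all genes. The list had a median of -0.06 beside 0.11 for all genes. Without DsRed replicate 2 the list had 5 calls, with Klf2 (0.57) also higher and Des (-0.27) and Hrc (-0.89) also lower, and without MGT replicate 1 it had 1. Calls over all genes were 4060 without DsRed replicate 2 and 1229 with all 9 libraries. Xirp2 was at 6.81, 6.73 and 6.67 TPM in MGT+TMP269 cells, lower than in MGT cells by a log2 difference of -0.88 ± 0.16 (adjusted p = 0.00779, limma, and 0.0559 without MGT replicate 1). Myh6 was at 303, 325 and 351 TPM in MGT+TMP269 cells and at a mean of 71.3 ± 4.27 TPM in MGT cells (SD, n = 3). The log2 difference was 2.18 ± 0.12 (adjusted p = 1.97e-05, limma).

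Several textbook GATA4 targets differed with TMP269. Of 11 genes, 9 were tested, and 5 were higher and 1 lower in MGT+TMP269 than in MGT cells. Among all genes 3.32% were called higher and 5.97% lower. The median was 0.79 in the list beside 0.11 for all genes. Nppa was at 362, 366 and 437 TPM in MGT+TMP269 cells and at 24.2, 23.5 and 25.1 TPM in MGT cells, 16.0 times as high (log2 difference 3.94 ± 0.76, adjusted p = 0.0113, limma). Nppb, which encodes the brain natriuretic peptide, was at 41.0, 32.8 and 42.2 TPM in MGT+TMP269 cells and 6.25, 5.73 and 5.71 TPM in MGT cells (2.52 ± 0.17, adjusted p = 4.95e-05, limma). Tnni3, the adult cardiac troponin I, was at 77.1, 89.7 and 101 TPM in MGT+TMP269 cells and 35.9, 38.3 and 36.3 TPM in MGT cells (2.43 times as much, adjusted p = 0.00321, limma). Bcl2, an inhibitor of cell death, averaged 17.2 TPM in MGT+TMP269 cells and 9.53 TPM in MGT cells (0.79 ± 0.15, adjusted p = 0.0114, limma), and lost its call without any 1 of these 6 libraries (highest adjusted p = 0.0623, limma).

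The exception among the called GATA4 targets was Adora1, the adenosine A1 receptor. It was at 7.82, 3.59 and 4.97 TPM in MGT+TMP269 cells and 11.1, 10.7 and 10.8 TPM in MGT cells (log2 difference -0.93 ± 0.24, adjusted p = 0.0436, limma). Its call was lost without any of 7 libraries, namely the 3 MGT libraries, MGT+TMP269 replicates 2 and 3 and DsRed replicates 1 and 3 (highest adjusted p = 0.156, limma). In MGT against DsRed cells the GATA4 list had 6 higher and 0 lower genes, beside 8.14% and 4.18% of all genes, with a median of 1.71. Among the 6 was Tnnc1, cardiac troponin C, with a mean of 205 TPM in MGT and 12.8 TPM in DsRed cells (3.92 ± 0.16, adjusted p = 3.18e-07, limma). Tnni3 averaged 36.8 TPM in MGT and 4.09 TPM in DsRed cells (2.92 ± 0.19, adjusted p = 7.23e-06, limma). Adora1 was at most 0.136 TPM in DsRed cells (3.47 ± 0.24, adjusted p = 1.16e-05, limma). Nppa was not called there, at 24.2, 23.5 and 25.1 TPM in MGT cells and 1.55, 39.0 and 9.49 TPM in DsRed cells (adjusted p = 0.335, limma), but without DsRed replicate 2 it had a log2 difference of 2.29 and an adjusted p of 0.00928 (limma).

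Of 10 TBX5 targets, 7 were tested, and 4 were higher and 2 lower in MGT than in DsRed cells, beside 8.14% and 4.18% of all genes. Their median was 1.47 beside 0.11 for all genes. Ryr2, the calcium release channel, was at 10.8, 12.3 and 11.2 TPM in MGT cells and 0.258 to 1.04 TPM in DsRed cells (log2 difference 3.02 ± 0.21, adjusted p = 9.83e-06, limma). Kcna5, an atrial potassium channel, averaged 4.37 TPM in MGT and 0.284 TPM in DsRed cells (2.07 ± 0.21, adjusted p = 0.000142, limma). Id2 and Osr1, which Tbx5 activates in other settings of the developing heart, were lower. Id2, an inhibitor of helix-loop-helix factors, was at 14.3, 17.9 and 19.1 TPM in MGT cells and 67.5, 47.5 and 61.9 TPM in DsRed cells (-1.72 ± 0.17, adjusted p = 0.000124, limma). Osr1, a zinc finger factor of the second heart field, was at 5.87, 5.66 and 4.59 TPM in MGT cells and 17.5, 15.2 and 18.3 TPM in DsRed cells (-1.50 ± 0.17, adjusted p = 0.000282, limma).

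With TMP269, 2 of these 7 TBX5 targets were higher and 0 lower than in MGT cells, beside 3.32% and 5.97% of all genes. Their median of 0.11 was that of all genes. Ryr2 was at 27.5, 29.8 and 32.9 TPM in MGT+TMP269 cells, above all MGT libraries (1.32 ± 0.21, adjusted p = 0.00367, limma), and Nppa was the other. Kcna5 averaged 4.41 TPM in MGT+TMP269 and 4.37 TPM in MGT cells (adjusted p = 0.981, limma), and Id2 18.4 TPM in MGT+TMP269 and 17.1 TPM in MGT cells (adjusted p = 0.784, limma). The calls for Nppa, Nppb, Myh6, Tnni3 and Ryr2 held in this comparison when any 1 of the 9 libraries was left out. Of these 5, Nppa, Myh6, Tnni3 and Ryr2 are also among the 9 cardiomyocyte markers. The sums of those markers, given above, were higher in MGT+TMP269 than in MGT cells. Tnnt2, Myl7 and Myl2 also averaged higher with TMP269, Myl2 at under 1 TPM. Actc1 averaged lower, at 531 TPM in MGT+TMP269 and 563 TPM in MGT cells, as did Pln, at 1.98 and 2.73 TPM. The part of the share of cardiomyocyte-like cells in the differences of the 5 genes was not tested.

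Genes repressed by TBX2 and TBX3 were set beside Tbx2, of which 4 of 5 were tested. In MGT+TMP269 cells, where Tbx2 was higher than in MGT cells, 1 of the 4 tested was higher and 0 lower, and the 1 was Nppa. Of all genes 3.32% were called higher and 5.97% lower there. The untested gene was Gja5, under the filter on low values. It was lower with TMP269, at 0.131, 0.247 and 0.351 TPM in MGT+TMP269 cells and 1.32, 1.46 and 1.11 TPM in MGT cells. Gja1, the gap junction protein connexin 43, was at 84.1, 82.8 and 89.1 TPM in MGT+TMP269 cells and 56.9, 62.2 and 59.4 TPM in MGT cells, with no overlap, and did not pass (log2 difference 0.51, adjusted p = 0.255, limma, and 0.00299 without DsRed replicate 2). In MGT against DsRed cells 1 was higher and 1 lower, beside 8.14% and 4.18% of all genes. Gja1 averaged 59.5 TPM in MGT and 22.3 TPM in DsRed cells (1.44 ± 0.24, adjusted p = 0.00322, limma), and Cdkn2a, the Ink4a and Arf cell cycle inhibitor locus, averaged 117 TPM in MGT and 316 TPM in DsRed cells (-1.38 ± 0.19, adjusted p = 0.00109, limma). Without DsRed replicate 2 the list had 3 calls with TMP269 and 4 in MGT against DsRed cells. Over all genes the calls then rose to 4060 and 3468, against 1229 and 1630 with all 9 libraries.

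**Figure D5:**
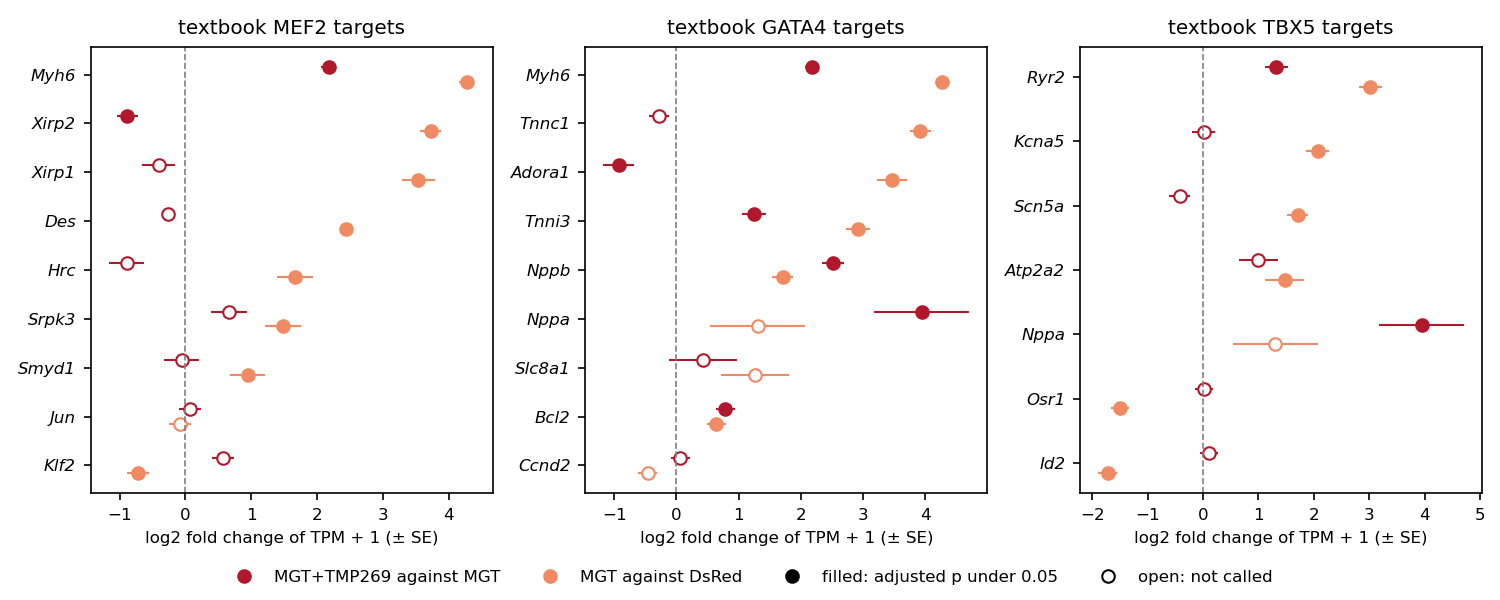
Log2 difference of the tested MEF2, GATA4 and TBX5 target genes with its SE in MGT+TMP269 against MGT cells and in MGT against DsRed cells, on the log2(TPM + 1) scale; filled points have an adjusted p under 0.05. Most MEF2 and GATA4 targets lie above 0 against DsRed, while with TMP269 Nppa, Nppb, Myh6, Tnni3 and Ryr2 lie above 1. Xirp2 and Adora1 are the called genes below 0 with TMP269, and Hrc, Xirp1, Des and Smyd1 are among those below 0 that were not called.

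Across all genes the median log2 difference was 0.11 in MGT+TMP269 against MGT cells and in MGT against DsRed cells, and 0.22 in MGT+TMP269 against DsRed cells. Set against the median gene, Mef2c (0.07) and Tbx5 (0.13) differed little between the MGT groups and Gata4 (0.39) lay above it. The share of calls that were higher was 66.1% as deposited and 56.1% after median-ratio scaling for MGT against DsRed, and 64.7% and 47.1% for MGT+TMP269 against DsRed. After quantile normalization those shares were 51.2% and 50.7%.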

How the data were processed

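RNA was measured in 9 libraries of neonatal cardiac fibroblasts, 3 per group. Per the labels' protocols, libraries were made with a directional kit from total RNA taken with TRIzol. What the authors deposited is a single table with 1 TPM value per gene symbol and library. kallisto, DESeq2 and the build mm9 were used, per the submitters' processing notes; the sources used here state neither versions nor roles. TPM keeps no read depth, so depth is unknown and no counting interval is given. TPM summed to between 988020 and 988999 per library. Of 34804 lines, 25 with a date in place of a symbol (0.123% to 0.176% of TPM) were left out.

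limma 3.58.1 in R 4.3.3 was fitted to log2(TPM + 1) of the 13228 genes with a mean of at least 1 TPM, with the group as the only term and all 9 libraries sharing 1 spread estimate. The moderated test was two-sided with a variance trend and Benjamini-Hochberg adjustment over all genes tested. The fit was also run on simulated data with normal noise and the same spread in all groups. No library stood apart there as DsRed replicate 2 does. The added differences were larger than those of Gata4, Mef2d and Tbx2 between MGT+TMP269 and MGT. That run therefore says nothing on calls of such genes. Folds are ratios of mean TPM, given where both means are at least 1. Ratios between factors were compared with an exact permutation test over libraries. Promoter windows and their coordinates come from RefSeq (GRCm38.p6) and were matched by symbol, with none printed for Gata4, Tbx5 and Tbx2. No coordinate of the build mm9 is given.

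The 6 genes and all lists were chosen with earlier results of these data known. Besides the 6 genes, the rule names, per list and comparison, the called genes (up to 4, by smallest adjusted p) or, where none is called, the 2 most abundant, list members under the filter by their range, and the 5 genes most like each delivered factor, predicted genes left out. The list genes are described for MGT+TMP269 against MGT and MGT against DsRed. Bcl2 and Adora1 with TMP269, Tbx20, Nppa in MGT against DsRed, Gja1, Kcna5 and Id2 with TMP269, and the genes named for a single left-out library (Mga, Klf2, Hrc, Des) are given beyond this rule, chosen after their values were seen. Alternatives were another pseudocount, filters, median-ratio and quantile scaling, a fit to each pair of groups alone, array weights, a replicate block and leaving out each library.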

Additional observations from a re-analysis of the deposited data

How the results depend on the processing

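The 24 results on the 6 genes, the ratios and the counts of called genes were recomputed under the alternatives, which gave 375 values. Of these, 315 kept the direction and the side of the threshold, or the count within 1.5 times. The ratios were recomputed only with a pseudocount and without each MGT+TMP269 or MGT library. Mef2c, Gata4 and Tbx5 stayed called against DsRed under each alternative. Replicates of the same number did not deviate together (correlations of -0.07 to 0.13), so the numbers were not taken as pairs. With a replicate block 1418 genes were called in MGT against DsRed, 947 in MGT+TMP269 against MGT and 2679 in MGT+TMP269 against DsRed, Tbx2 in MGT+TMP269 against MGT lost its call (0.75, adjusted p = 0.0624, limma) and Mef2d in MGT+TMP269 against DsRed gained one (0.83, adjusted p = 0.0474, limma). Fitting only the groups compared called 4476 genes in MGT+TMP269 against MGT, 1066 in MGT against DsRed and 1789 in MGT+TMP269 against DsRed, and gave calls in MGT+TMP269 against MGT to Gata4 (0.39) and Mef2d (0.55, adjusted p = 0.00259, limma), while Tbx2 in MGT+TMP269 against DsRed was lost (0.78, adjusted p = 0.0543, limma). Array weights called 4818 genes in MGT+TMP269 against MGT and 2915 in MGT against DsRed. With weights Gata4 (0.38) and Mef2d (0.54) were called in MGT+TMP269 against MGT, Mef2a in MGT against DsRed (-0.56) and in MGT+TMP269 against DsRed (-0.76), and Mef2d in MGT+TMP269 against DsRed (0.49). In MGT against DsRed weights reversed Mef2d (-0.0514) and Tbx2 (-0.0278). Median-ratio scaling reversed Mef2c in MGT+TMP269 against MGT (-0.0458) and Tbx2 in MGT against DsRed (-0.0782), as quantile scaling did for Tbx2 (-0.24). Both scalings gave a call to Mef2d in MGT+TMP269 against DsRed (0.59 each). Tbx2 in MGT+TMP269 against MGT lost its call with a pseudocount of 0.1 (0.95) and without a filter (0.75), and a filter at a mean of 5 TPM left Tbx2 out. Leaving out 1 library at a time gave 1065 to 3468 called genes in MGT against DsRed, 626 to 4060 in MGT+TMP269 against MGT and 1865 to 4851 in MGT+TMP269 against DsRed, the highest each time without DsRed replicate 2. In the same runs MGT against DsRed ranged from -0.61 to 0.0925 for Mef2a, -0.0909 to 0.47 for Mef2d and -0.0502 to 0.14 for Tbx2. MGT+TMP269 against MGT ranged from 0.33 to 0.43 for Gata4, 0.49 to 0.63 for Mef2d and 0.64 to 0.83 for Tbx2. MGT+TMP269 against DsRed ranged from -0.79 to -0.0900 for Mef2a, 0.46 to 1.03 for Mef2d and 0.72 to 0.87 for Tbx2. The cause was not tested for any of these.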

Other observations

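Genes of the lists that lay under the filter on low values were not tested and are given as values only. Slc2a4, the insulin-responsive glucose transporter and a MEF2 target, was at 1.73, 2.46 and 2.01 TPM in MGT+TMP269 cells, 0.201, 0.269 and 0.251 TPM in MGT cells and at most 0.0492 TPM in DsRed cells. Chrm2, the muscarinic receptor of the heart and a GATA4 target, was at 1.86, 1.56 and 2.34 TPM in MGT+TMP269 cells, 0.596, 0.923 and 0.469 TPM in MGT cells and at most 0.0509 TPM in DsRed cells. Gja5 encodes connexin 40 and is both a TBX5 target and a gene repressed by TBX2 and TBX3. It was at 0.131, 0.247 and 0.351 TPM in MGT+TMP269 cells, 1.32, 1.46 and 1.11 TPM in MGT cells and 0.314, 0.152 and 1.62 TPM in DsRed cells. The MGT+TMP269 libraries were above both other groups for Slc2a4 and Chrm2, and below the MGT libraries for Gja5. Ckm, the muscle creatine kinase, and Ppargc1a, both MEF2 targets, stayed within 0.0870 to 0.428 TPM in MGT+TMP269 cells, 0.0188 to 0.256 TPM in MGT cells and 0.0519 to 0.353 TPM in DsRed cells. The TBX5 targets Bmp10 and Fgf10 reached at most 0.222 TPM in MGT+TMP269 cells, 0.240 TPM in MGT cells and 1.18 TPM in DsRed cells, and Bmp10 was listed at 0 in all 6 MGT+TMP269 and MGT libraries. Mef2b was at 0.406 to 0.738 TPM in MGT+TMP269 cells, 0.224 to 0.503 TPM in MGT cells and 0.309 to 0.363 TPM in DsRed cells. Gata1 and Gata5 reached at most 0.251 TPM in MGT+TMP269 cells, 0.278 TPM in MGT cells and 1.39 TPM in DsRed cells. The 10 T-box genes under the filter reached at most 0.868 TPM in MGT+TMP269 cells, 1.13 TPM in MGT cells and 0.839 TPM in DsRed cells, each of these values being that of Tbx6. The partner factors Nkx2-5, Hand1 and Isl1 reached at most 0.597 TPM in MGT+TMP269 cells, 1.04 TPM in MGT cells and 0.747 TPM in DsRed cells, and the kinase gene Camk4 was at 0.109 to 0.252 TPM in MGT+TMP269 cells, 0.315 to 0.417 TPM in MGT cells and 0.748 to 1.58 TPM in DsRed cells.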
